A study of Mus musculus with 22 samples.

Results

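Spinal cord from mice that received the FKBP51 inhibitor SAFit2 late, once joint pain was established, was compared with spinal cord from mice that received the carrier gel alone at the same times: 5 Late SAFit2 against 6 Late Vehicle RNA sequencing libraries, 11 of the 22 libraries of the study. All mice were wildtype C57BL6J aged 12 to 14 weeks at collection, and all carried the same injury, an injection of 1 mg of monoiodoacetate (MIA) into the knee. They were male by the study's description of its experiment with early and late treatment. Late SAFit2 mice received SAFit2 at 100 mg/kg in a vesicular phospholipid gel on days 20 and 27 after MIA, and Late Vehicle mice the gel without drug on those days. The lumbar cord (segments L4 to L6, the quadrants on the injured side according to the methods) was taken on day 30. The other 11 libraries, 5 Early SAFit2 and 6 Early Vehicle, are of mice with the same injury that received gel on days -3 and 4 by the design text, and they enter as part of the estimate of spread, as part of the gene means that set the zero of the library slopes below, and as the contrast set beside the late one. Each library is a separate mouse, and no library of an uninjured mouse was included. A gene was kept when its log2 CPM (its reads per library size, on a log2 scale) was at least -1 in 5 or more of the 11 late libraries, which left 15808 of 17306 genes.

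FKBP51, the product of Fkbp5, is a co-chaperone of Hsp90 that lowers the affinity of the glucocorticoid receptor for its hormone, and its own gene is induced by that receptor. MIA blocks glycolysis in chondrocytes, and the joint damage that follows is a standard model of osteoarthritis pain. The GC content of a transcript is the share of its bases that are G or C. It differs widely between gene families of the nervous system: mitochondrially encoded transcripts, many KRAB zinc finger genes and GABA-A receptor subunits are rich in A and T, whereas histones, postsynaptic scaffolds, Hedgehog and Notch components and collagens are rich in G and C. The number of reads that a transcript yields can itself depend on its GC content, to an extent that varies between libraries.

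The span of GC content in question is shown by the middle 150 bases of the coding sequence of 4 genes, written from 5′ to 3′ with every G and C in capitals, from the GENCODE M21 transcript (GRCm38). They are the higher and the lower gene of lowest p among genes whose late groups did not overlap, and those of lowest p, higher and lower, in the middle of 5 classes of GC content. Zfp991, a zinc finger gene of chromosome 4 (chr4:147132093-147180579), was higher in Late SAFit2 and 33.3% of these bases are G or C. Gli2, the zinc finger effector of Hedgehog signalling (chr1:118834061-119054405), was lower, with 61.3%. Mbnl2, a splicing regulator (chr14:120275652-120431698), was higher, and Zfp668, a zinc finger gene (chr7:127861025-127876836), was lower. Their whole transcripts hold 49.3% and 51.4% G and C, less than the 54.0% and 63.3% of these coding windows, and GC content below is that of the whole longest transcript.
Zfp991: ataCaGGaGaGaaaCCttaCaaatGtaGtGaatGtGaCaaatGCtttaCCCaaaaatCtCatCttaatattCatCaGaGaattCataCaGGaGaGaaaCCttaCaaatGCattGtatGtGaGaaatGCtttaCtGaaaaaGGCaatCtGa
Gli2: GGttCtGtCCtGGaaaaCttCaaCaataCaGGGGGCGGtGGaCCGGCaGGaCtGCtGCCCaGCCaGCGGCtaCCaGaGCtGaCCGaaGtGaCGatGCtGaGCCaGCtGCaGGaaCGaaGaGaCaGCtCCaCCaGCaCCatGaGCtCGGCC
Mbnl2: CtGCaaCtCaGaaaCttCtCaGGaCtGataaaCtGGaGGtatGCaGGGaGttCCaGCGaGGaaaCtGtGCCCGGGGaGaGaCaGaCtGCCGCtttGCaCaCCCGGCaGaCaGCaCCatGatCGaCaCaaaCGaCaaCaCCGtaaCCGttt
Zfp668: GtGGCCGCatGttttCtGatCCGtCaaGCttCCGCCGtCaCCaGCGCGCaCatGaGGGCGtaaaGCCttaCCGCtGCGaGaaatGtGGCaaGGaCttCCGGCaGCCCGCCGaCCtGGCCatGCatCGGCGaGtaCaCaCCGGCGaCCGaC

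The late libraries held 11352989 to 23197524 reads on genes. Markers of the cells of the cord were present in every late library. On the log2 scale of their summed CPM, the 12 neuronal markers ranged over 12.68 to 12.83 in Late SAFit2 and 12.42 to 12.76 in Late Vehicle, the 11 astrocyte markers over 12.85 to 13.11 and 12.86 to 12.96, the 12 oligodendrocyte markers over 14.28 to 14.61 and 14.19 to 14.46, and the 12 microglial markers over 8.66 to 8.96 and 8.74 to 8.87. Among these 47 markers 5 rose and 2 fell by the test used below, which called 6.14% of all genes higher and 7.62% lower. Of the precursors of oligodendrocytes (9 markers), endothelial and mural cells (12), motor neurons (7), red blood cells (7 tested) and sensory neurons of the dorsal root ganglion (6 tested), the medians of the log2 fold change were -0.28, -0.080, -0.16, 0.053 and -0.14, with 1 marker that rose and 4 that fell. Schwann cell markers (8, median -0.51, 1 fell) and meningeal fibroblast markers (10, median -0.060, none called) spread more in Late SAFit2 on the same log2 scale, at 7.82 to 12.10 and 6.05 to 10.08, than in Late Vehicle, at 9.91 to 10.95 and 7.75 to 8.48. The Schwann cell marker that fell was Sox10, which is also among the oligodendrocyte precursor markers and is counted there too. The same held for motor neuron markers, at 6.90 to 8.77 against 7.67 to 8.45, and for markers of dorsal root ganglion neurons, at 9.36 to 11.27 against 9.98 to 10.57. Prph and Isl1 are in both of these lists, and within Late SAFit2 both sums were highest in replicates 2 and 3, so they are not separate observations. In bulk tissue, fewer cells of a type and less RNA per cell cannot be told apart.

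Late SAFit2 replicates 3 and 5 also held skeletal muscle transcripts. The summed level of the 10 muscle markers in the table was 8.06 and 7.62 in these libraries, on the log2 scale, against 2.09 to 3.05 in the other 9. Tnnt3, fast skeletal troponin T, stood at 6.27 and 5.76 log2 CPM in them and at -2.13 to 1.02 elsewhere, and it was the 1 called gene among the 4 muscle markers tested. Myh4, fast myosin heavy chain, was at 6.17 and 5.65 in them and at the value of 0 reads, -3.15, in 5 of the other 9 libraries. Both genes are named here after their values were seen. The part that this RNA plays in other differences was not tested. The test below called 1683 genes without replicate 3, 1 without replicate 5 and 1 without both.

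By limma on the deposited values, with all 4 groups sharing an estimate of spread, 2174 genes (13.8% of those tested) differed between Late SAFit2 and Late Vehicle at an adjusted p under 0.05 and at least 1.2-fold. Of these, 970 (6.14%) were higher in Late SAFit2 and 1204 (7.62%) lower. Most differences were small: 332 of the higher and 787 of the lower genes reached 1.5-fold, and 55 and 171 reached 2-fold. The late groups did not overlap in 274 genes (1.73% of those tested), 141 higher and 133 lower, of which 198 were also called. Of the called genes, 4 higher and 21 lower ones passed the filter on low values with at most 1 library of the group in which they were lower (5 with none), so they entered the test mainly through the group in which they were higher. H3c13, Dnah11, Egr4 and Ikbke below are among them. The lowest adjusted p was 0.0061, and 2138 of the called genes lay between 0.03 and 0.05. With library sizes that left out Bc1 and the mitochondrially encoded genes, 704 of 2270 called genes (31.0%) were higher, against 44.6% here and 55.0% of 1101 by voom on recovered reads. The number of calls depended on single libraries. With the 11 late libraries fitted alone, limma called 0 genes, where 5131 had a nominal p under 0.05 and the lowest adjusted p was 0.0664. Leaving out Late Vehicle replicate 1, 3, 4 or 5, or Late SAFit2 replicate 5, left Gli2 alone called. Without Late SAFit2 replicate 2 or 4, 37 and 8 genes were called. Without Late SAFit2 replicate 1, Late Vehicle replicate 2 or Late Vehicle replicate 6, the count was 3606, 3884 and 5003.

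The direction of a gene's difference followed its GC content. Over the 15353 genes whose GC content was known (97.1% of those tested), the late log2 fold change had a Pearson r of -0.65 and a Spearman rho of -0.71 with GC content, a description across genes, which are not independent replicates and share the same 11 libraries. The called higher genes had a median GC content of 41.6% and the called lower genes of 57.6%, around 49.7% for all genes with a value. With the genes in 10 bins of equal number by GC content, the median log2 fold change in the bin poorest in G and C (31.0% to 41.3%) was 0.42, with 448 genes higher and 1 lower. The median passed from 0.022 in bin 5 to -0.076 in bin 6, and reached -0.58 in the bin richest in G and C (58.0% to 72.8%), where 0 genes were higher and 541 lower. The medians were lower at every step from bin to bin. Over all called genes, 925 of 942 higher genes with a value lay under the median GC content and 1146 of 1190 lower genes above it.

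The relation was found at every level of expression and transcript length. With the genes in 5 classes of equal number from the lowest to the highest mean expression, r was -0.39, -0.69, -0.81, -0.84 and -0.85, so that it was tightest among highly expressed genes. In the shortest of 5 length classes, the median log2 fold change went from 0.42 in the lowest of 5 GC classes to -0.44 in the highest, and in the longest from 0.34 to -0.56. In the early contrast, r was 0.12 and the medians of the same 10 bins ran from -0.041 to 0.091.

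Each library was then described by its own slope, the change in log2 CPM (relative to the gene's mean over the 22 libraries) for every 10 points of GC content. The slopes of Late SAFit2 replicates 1 to 5 were -0.051, -0.34, -0.23, -0.48 and -0.41. Those of Late Vehicle replicates 1 to 6 were 0.36, -0.17, 0.50, 0.26, 0.40 and -0.33. All Late SAFit2 slopes were below 0, the mean slope of the 22 libraries, 4 Late Vehicle slopes were well above it, and those of Late Vehicle replicates 2 and 6 lay among the Late SAFit2 slopes, so the groups overlapped. The mean was -0.30 ± 0.17 (SD, n = 5) in Late SAFit2 and 0.17 ± 0.34 (SD, n = 6) in Late Vehicle, a difference of -0.47 (two-sided exact permutation test, p = 0.0303, adjusted p = 0.106 over 14 library measures). In early mice the difference was 0.054 (exact permutation p = 0.615), and the late difference minus the early one was -0.52 (two-sided exact permutation of the treatment labels within timing, p = 0.0262, not adjusted). That permutation assumes no difference in either timing, so a late difference alone can give a low p. Without Late SAFit2 replicate 2, 4 or 5, or Late Vehicle replicate 1, 3, 4 or 5, the exact p of the late slope difference rose above 0.05 (0.0556 to 0.0667).

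**Figure D1:**
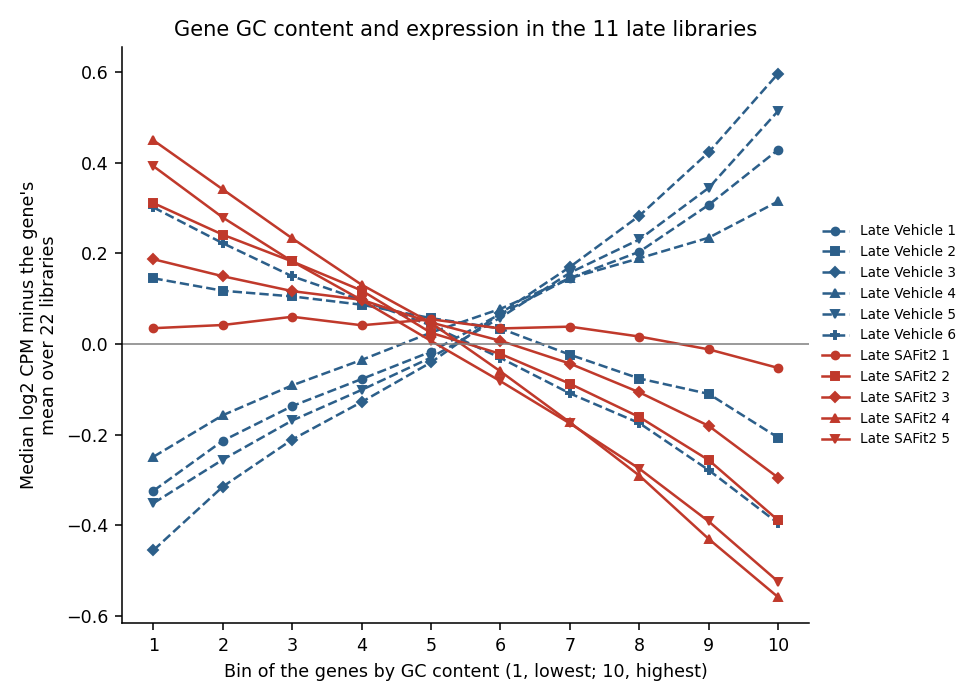
Median log2 CPM of a library, relative to each gene's mean over 22 libraries, in 10 bins of genes ordered on GC content (x axis, from 1 for the lowest to 10 for the highest). Each line is a late library, solid red for Late SAFit2 and dashed blue for Late Vehicle: 4 Late Vehicle lines rise from left to right, to between 0.31 and 0.60 in the richest bin, while the lines of Late Vehicle replicates 2 and 6 fall to -0.21 and -0.40, among the Late SAFit2 lines at -0.053 to -0.56.

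Other measures of the libraries also differed in mean between the late groups, with ranges that overlapped in each and none past an adjusted p of 0.05. The scaling factor worked back from the deposited values was 0.774 to 0.946 in Late SAFit2 and 0.902 to 1.03 in Late Vehicle (exact permutation p = 0.00866, adjusted p = 0.0808 over the 14 measures). Mitochondrially encoded transcripts took 11.1 to 12.5% and 6.03 to 11.9% of reads (p = 0.0173, adjusted p = 0.0808, exact permutation test). Bc1, a brain cytoplasmic RNA transcribed by RNA polymerase III, took 3.31 to 16.5% and 1.32 to 7.55% (exact permutation p = 0.0693, adjusted p = 0.194). Among the tested genes, 45 to 358 had no read in a Late SAFit2 library and 19 to 97 in a Late Vehicle library (exact permutation p = 0.0173, adjusted p = 0.0808). Late Vehicle replicate 6 lay among the Late SAFit2 libraries for each of these. For total reads on genes p was 0.32 (exact permutation test), and for the slope on transcript length it was 0.333 (exact permutation test).

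**Figure D2:**
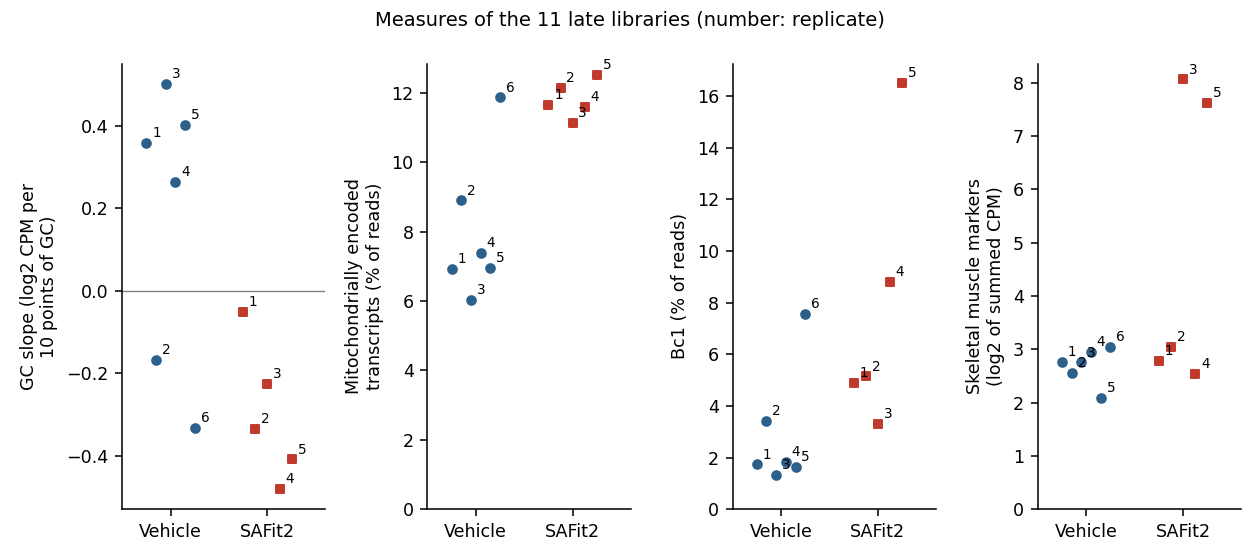
Measures of the 6 Late Vehicle (blue circles) and 5 Late SAFit2 (red squares) libraries, each numbered by its replicate: GC slope, percent of reads on mitochondrially encoded transcripts, percent of reads on Bc1, and log2 of the summed CPM of skeletal muscle markers. Late Vehicle replicate 6 lies among the Late SAFit2 libraries in the first 3, and Late SAFit2 replicates 3 and 5 stand apart in muscle markers.

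A correction removed from each library its smooth trend on GC content and length. A treatment effect that follows GC content would be removed with it, so such an effect and a library trend cannot be told apart in these 11 libraries. After it, r between the late log2 fold change and GC content was -0.012 and limma called 0 genes at an adjusted p under 0.05 (lowest adjusted p 0.0905). At a nominal p under 0.05 there were 2410, of which 914 were higher (5.95% of the genes tested) and 1496 lower (9.74%). Of the 2132 called genes with a GC value, 2010 kept their sign, 122 changed it, and 947 kept both their sign and a nominal p under 0.05 (317 higher, 630 lower). The median log2 fold change of the called higher genes went from 0.52 to 0.16 and that of the called lower genes from -0.66 to -0.27. In the brackets that follow a gene's name below stand its log2 fold change with the SE and, after the word corrected, the log2 fold change after this correction.

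**Figure D3:**
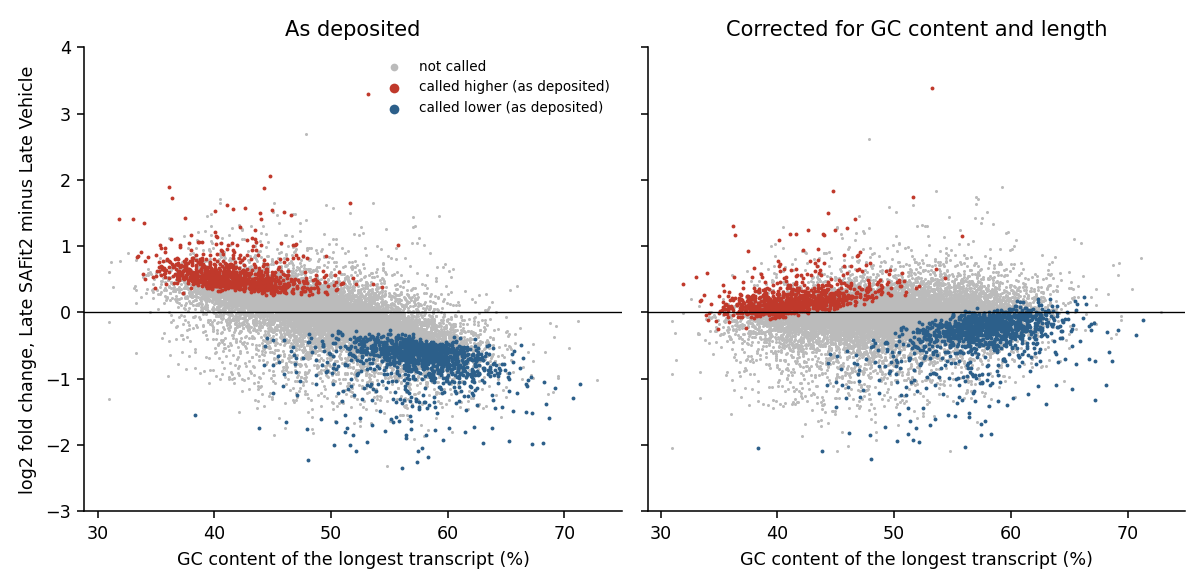
Log2 fold change of Late SAFit2 minus Late Vehicle (y axis) against GC content of the longest transcript (x axis, percent) for 15353 genes, as deposited (left) and after correction for GC content and length (right). Genes called on the deposited values are red (higher) and blue (lower) in both panels: on the left the higher genes lie at low and the lower genes at high GC content, and on the right the slope is gone (r = -0.012) and the called genes have moved towards 0.

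Gli2 fell most clearly. Its log2 CPM was 1.11, 1.22, 1.28, 0.69 and 1.09 in Late SAFit2 replicates 1 to 5 and 2.12 to 2.69 (median 2.45) in the 6 Late Vehicle libraries. Every Late SAFit2 library lay below every Late Vehicle library, including Late Vehicle replicates 2 and 6. The log2 fold change was -1.36 ± 0.20 (SE, limma adjusted p = 0.0061, exact permutation p = 0.00433, the smallest that 5 against 6 allow), and it was called in all 22 fits that left out a library. Every gene without overlap has that exact permutation p, and Gli2 was named among such genes, so the value adds no support. After correction it was -0.93 ± 0.22, with a limma adjusted p of 0.098 and groups that still did not overlap, at 1.09 to 1.56 (median 1.52) in Late SAFit2 and 1.69 to 3.07 (median 2.24) in Late Vehicle. In early mice it was 0.0087.

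The other lower genes of lowest p without overlap were Trim67, a neuronal E3 ubiquitin ligase (-0.87 ± 0.16, corrected -0.46, GC content 56.4%), Rundc1 (-0.91 ± 0.16, corrected -0.59, GC content 55.7%), Rhbdd2, a rhomboid family protein (-0.54 ± 0.10, corrected -0.38, GC content 52.5%), Ssh3, a slingshot phosphatase of the cofilin pathway (-1.48 ± 0.29, corrected -1.24, GC content 54.2%), Gorasp1, a Golgi stacking protein (-0.78 ± 0.15, corrected -0.49, GC content 55.0%), Id3, an inhibitor of basic helix-loop-helix factors (-0.82 ± 0.16, corrected -0.60, GC content 55.6%), and Plcxd1 (-1.02 ± 0.20, corrected -0.56, GC content 58.5%). For Id3, the log2 CPM was 3.75, 3.75, 3.28, 3.19 and 3.53 in Late SAFit2 and 3.80 to 4.62 (median 4.49) in Late Vehicle, with the lowest Late Vehicle library close above the highest Late SAFit2 ones. For Rundc1 the Late SAFit2 libraries spanned 2.80 to 3.30 (median 3.06) and the Late Vehicle libraries 3.69 to 4.17 (median 4.0). All 8 lower genes of this group had a GC content above the median of all genes, and all stayed negative after correction.

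The higher genes of lowest p without overlap were all below the median in GC content where it was known. Zfp991 stood at 3.88, 4.84, 4.11, 4.42 and 4.03 log2 CPM in Late SAFit2 and 2.82 to 3.77 (median 3.26) in Late Vehicle, and rose by 1.03 ± 0.19 (SE, adjusted p = 0.025), or 0.41 after correction, when its groups overlapped. It belongs to a cluster of near-identical zinc finger genes, so its reads may be shared with other copies. The others were Brcc3, a K63-specific deubiquitinase (0.71 ± 0.14, corrected 0.11, GC content 35.5%), Zfp560 (1.15 ± 0.23, corrected 0.73, GC content 40.2%), Zcchc9 (1.01 ± 0.21, corrected 0.74, GC content 44.0%), Twf1, the actin monomer binding protein twinfilin (0.48 ± 0.10, corrected 0.20, GC content 43.9%), Zdhhc13, a palmitoyltransferase (0.68 ± 0.14, corrected 0.38, GC content 43.5%), the unnamed gene Gm19578 (0.94 ± 0.19, no GC value) and Mylk4 (2.06 ± 0.45, corrected 1.84, GC content 44.7%). Mylk4, a myosin light chain kinase of striated muscle, was highest in Late SAFit2 replicates 3 and 5, at 1.37 and 1.49, the libraries with muscle transcripts. It was at 0.69, 0.74 and 0.39 in the other Late SAFit2 libraries and at -3.15 to -0.011 (median -0.81) in Late Vehicle.

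**Figure D4:**
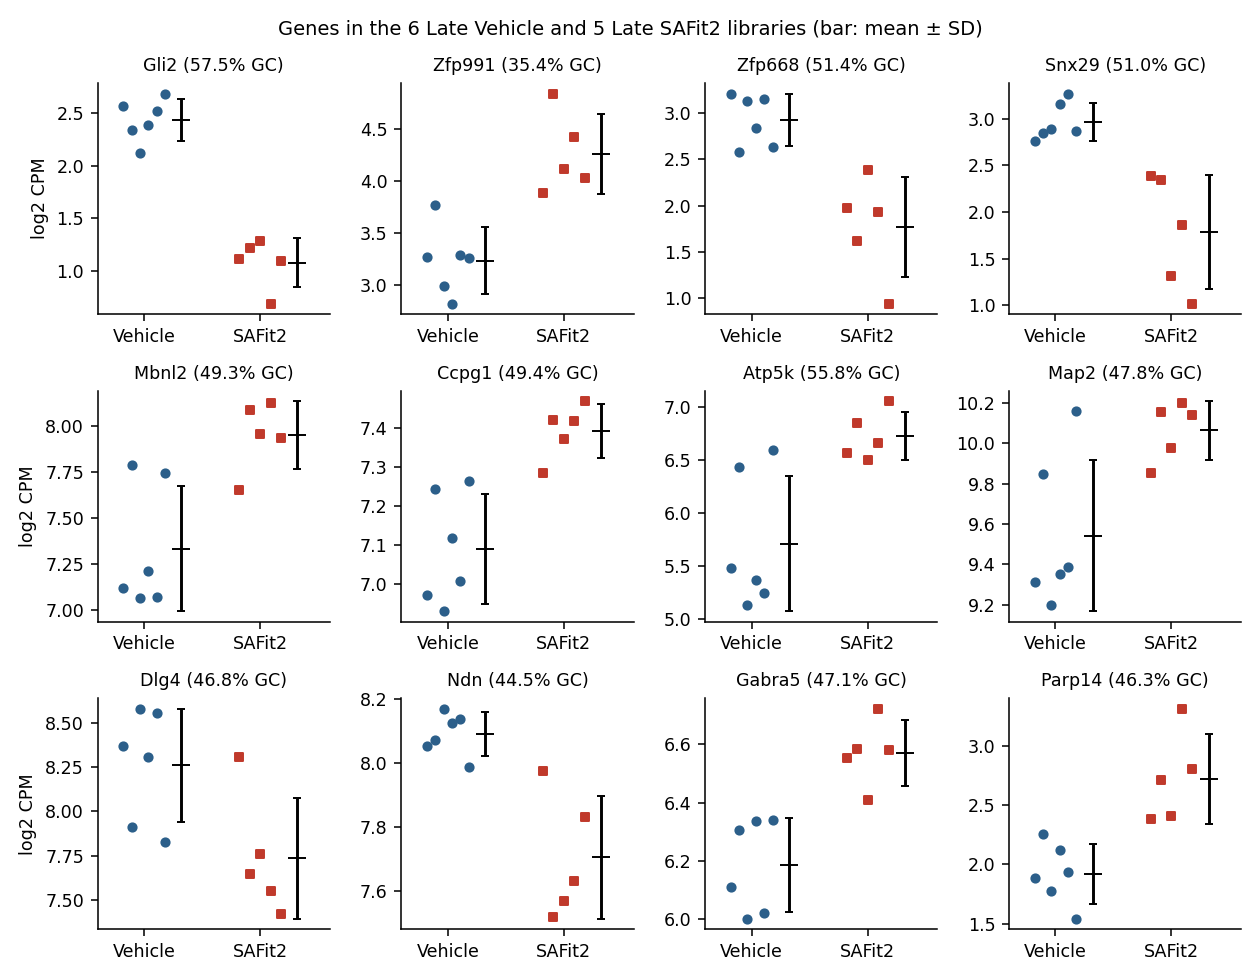
Log2 CPM of 12 genes in the 6 Late Vehicle (blue circles) and 5 Late SAFit2 (red squares) libraries, left to right by replicate number, with the mean and SD of each group in black and the GC content in the title. Gli2, Zfp991, Zfp668, Snx29, Ccpg1, Ndn, Gabra5 and Parp14 do not overlap between the groups, while for Mbnl2, Atp5k, Map2 and Dlg4 the Late Vehicle replicates 2 and 6 lie nearest to Late SAFit2.

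Gene families moved broadly, but not all, as their GC content would order them. Among the exceptions, AMPA, NMDA and kainate receptor genes and synaptic vesicle genes had medians below 0 at a median GC content under that of all genes. Over 43 families, the median log2 fold change had r = -0.85 (rho = -0.78) with the median GC content, given as a description, since the families share the same libraries and some genes. The medians spanned -0.37 to 0.79, 17 above and 26 below 0, against -0.043 over all genes tested, and after correction they spanned -0.24 to 0.20 (all genes -0.036). Of the 1736 family genes with a GC value, 142 rose and 123 fell, and 139 of the former lay under the median GC content of all genes and 115 of the latter above it. The family counts below stand against 6.14% higher and 7.62% lower among all genes and, for a nominal p under 0.05 after correction, 5.95% and 9.74%. The zinc finger, histone, Hedgehog, immediate early and motile cilium lists each hold 1 called gene that entered the test mainly through 1 group.

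**Figure D5:**
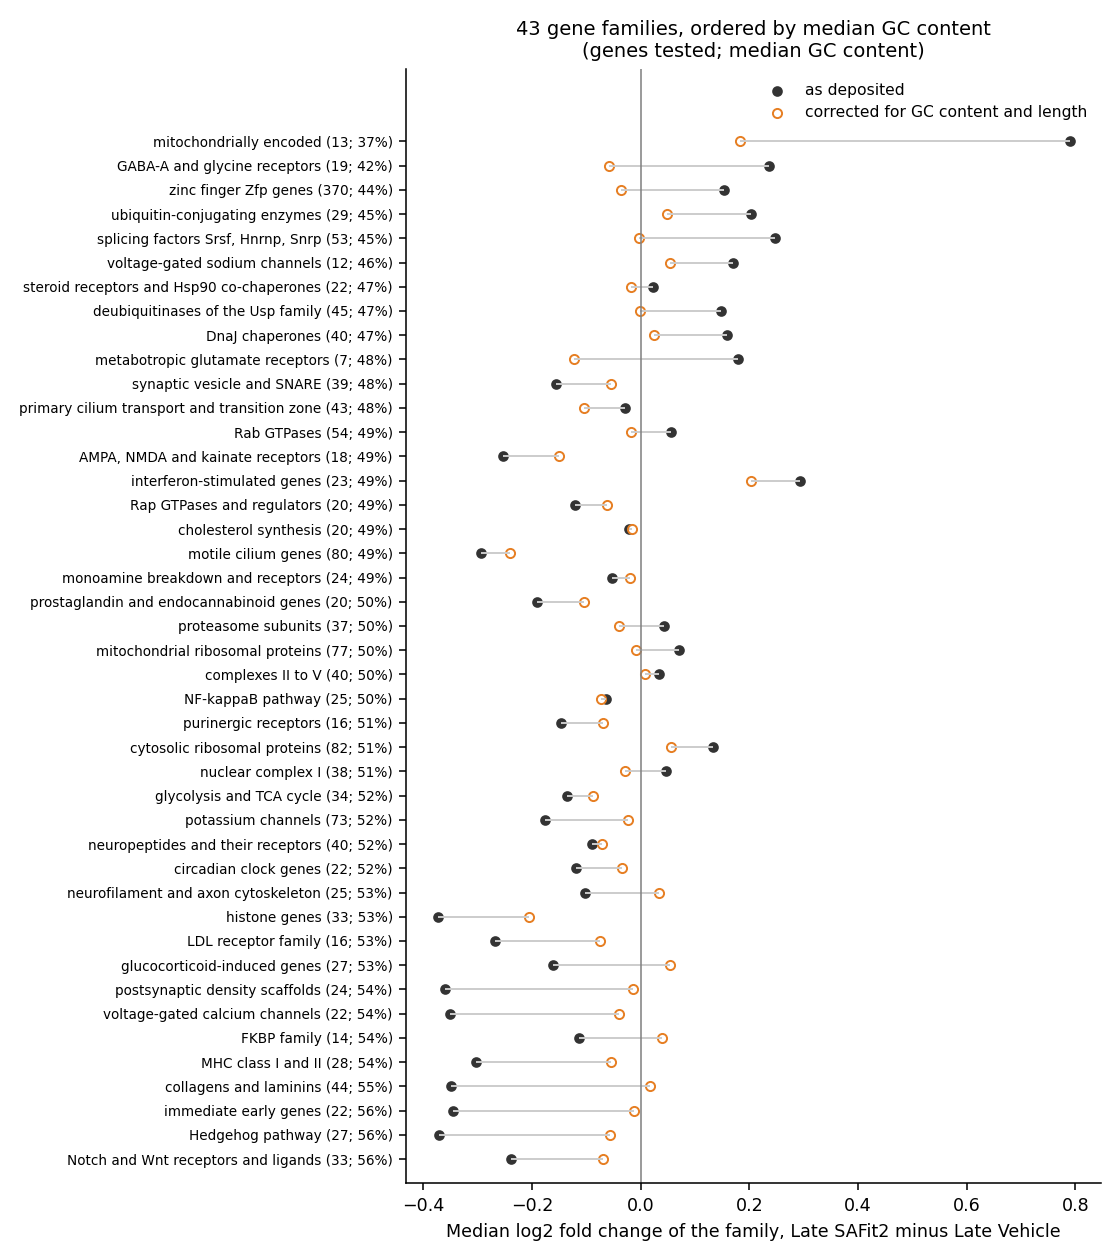
Median log2 fold change, Late SAFit2 minus Late Vehicle, of 43 gene families ordered from low (top) to high (bottom) median GC content, with the number of genes tested and the median GC content in brackets. Filled points are the deposited values and open points those corrected for GC content and length: the filled points drift from 0.79 for mitochondrially encoded genes to -0.24 for Notch and Wnt genes, and the open points lie between -0.24 and 0.20.

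Of the 13 mitochondrially encoded genes, which specify subunits of the respiratory chain and ATP synthase, 12 rose and 0 fell (median 0.79, 0.18 after correction, at a median GC content of 37.1%). ATP8, an ATP synthase subunit, stood at 11.11, 11.38, 10.82, 11.72 and 12.32 log2 CPM in Late SAFit2 and at 9.21 to 11.42 (median 9.75) in Late Vehicle, with a log2 fold change of 1.41 ± 0.34 (SE, adjusted p = 0.032). ND3 of complex I gave 1.41 ± 0.35 and ND2 0.91 ± 0.25. The other 10 lay between 0.65 for COX1, which was not called (adjusted p = 0.057), and 0.96 for ND4L, with COX2, subunit II of cytochrome oxidase, at 0.77 ± 0.24. For COX1, the Late SAFit2 libraries lay within 14.55 to 14.64 (median 14.60), whereas Late Vehicle spanned 13.59 to 14.56 (median 13.86), with replicate 6 at 14.56. After correction ATP8 (0.43) and ND3 (0.54) kept a nominal p under 0.05 and ND6 was -0.010. Under quantile normalization the median was 0.29 and COX1 and ATP6 were below 0.

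Nuclear genes of the same machinery went both ways. In complex I, 1 rose (GC content 42.0%) and 2 fell (GC content 56.7% to 59.6%) of 38 tested: the catalytic core genes Ndufs7 (-0.81 ± 0.20, corrected -0.42) and Ndufv1 (-0.45 ± 0.14, corrected -0.15) fell and Ndufv2 (0.48 ± 0.15, corrected 0.094) rose. In complexes II to V, 2 rose (GC content 50.4% to 55.8%) and 2 fell (GC content 50.2% to 59.3%) of 40 tested. Atp5k, the e subunit of ATP synthase, was the only called higher gene in the highest of 5 GC classes: it stood at 6.57, 6.85, 6.51, 6.66 and 7.06 in Late SAFit2 and 5.13 to 6.60 (median 5.43) in Late Vehicle, and its difference of 1.02 ± 0.30 was 1.16 after correction. Atp5j also rose (0.57 ± 0.18, corrected 0.49), while Atp5d fell (-1.12 ± 0.32, corrected -0.71), as did Uqcrq of complex III, whose groups did not overlap (-0.46 ± 0.12, corrected -0.49). In glycolysis and the TCA cycle, 0 rose and 1 fell (GC content 57.1%) of 34 tested, the faller being Pfkl, liver-type phosphofructokinase (-0.61 ± 0.17, corrected -0.22). The medians of these lists were 0.046, 0.034 (below 0 with library sizes that leave out Bc1 and mitochondrially encoded genes) and -0.14.

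Among mitochondrial ribosomal proteins, 4 rose (GC content 41.6% to 44.6%) and 5 fell (GC content 56.1% to 59.6%) of 77 tested (median 0.070, -0.0078 after correction, at a median GC content of 49.7%). Mrpl30 (0.47 ± 0.13, corrected 0.19), Mrps18c (0.61 ± 0.18, corrected 0.26) and Mrps33 (0.61 ± 0.18, corrected 0.27) rose, and Mrpl38 (-0.78 ± 0.17, corrected -0.35), Mrpl12 (-0.65 ± 0.16, corrected -0.40) and Mrpl4 (-0.64 ± 0.16, corrected -0.34) fell. All 4 that rose were poorer in G and C than all 5 that fell. Of cytosolic ribosomal proteins, 2 rose (GC content 39.1% to 43.1%) and 5 fell (GC content 52.0% to 59.1%) of 82 tested, with 22 higher and 15 lower at a nominal p under 0.05 after correction, the latter counts to be read against 5.95% and 9.74% of all genes. Rps27l (0.81 ± 0.24, corrected 0.37) and Rpl30 (0.70 ± 0.22, corrected 0.21) rose, and Rps4l (-0.81 ± 0.20, corrected -0.45), Rpl8 (-0.55 ± 0.15, corrected -0.22) and Rpl13 (-1.25 ± 0.37, corrected -1.18) fell. Rpl13 stood at 6.35, 5.50, 5.58, 5.03 and 5.28 in Late SAFit2 and 5.52 to 7.60 (median 7.25) in Late Vehicle, where replicates 2 and 6 gave the lowest values. These genes have many processed pseudogenes, so their counts are less certain than those of single-copy genes.

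Genes of protein turnover were called in both directions. Of ubiquitin-conjugating enzymes, 8 rose (GC content 35.1% to 45.3%) and 2 fell (GC content 45.0% to 58.2%) of 29 tested (median 0.20, 0.048 after correction, at a median GC content of 45.0%), which are 27.6% and 6.9% against 6.14% and 7.62% of all genes, and after correction 3 were higher and 3 lower at a nominal p under 0.05. Among those that rose were Ube2k (0.45 ± 0.11, corrected 0.048), Ube2n, which builds K63-linked chains (0.47 ± 0.12, corrected 0.066), and Ube2w (0.60 ± 0.16, corrected 0.14). Ube2s, which extends K11-linked chains for the anaphase-promoting complex, fell although its GC content was 45.0%, with a log2 fold change of -1.21 ± 0.32 and -1.43 after correction. It was at 4.31, 3.38, 3.78, 2.70 and 2.97 in Late SAFit2 and 3.39 to 5.39 (median 4.93) in Late Vehicle. Late Vehicle replicates 2 and 6, whose GC slopes lay among those of Late SAFit2, stood at 3.83 and 3.39. After correction they were at 3.75 and 3.25, still within Late SAFit2 at 2.47 to 4.29. Ube2o also fell (-0.59 ± 0.19, corrected -0.13). Of proteasome subunits, 5 rose (GC content 37.0% to 47.9%) and 2 fell (GC content 55.4% to 56.5%) of 37 tested, shares of 13.5% and 5.41%. After correction 4 were higher and 6 lower at a nominal p under 0.05 (10.8% and 16.2%, against 5.95% and 9.74% of all genes, among which lower genes were also the more numerous). Psmc6 (0.50 ± 0.13, corrected -0.063), Psmd14 (0.45 ± 0.12, corrected 0.11) and Psma3 (0.63 ± 0.18, corrected 0.22) rose, and Psmd3 (-0.54 ± 0.16, corrected -0.25) and Psmb10 (-0.57 ± 0.18, corrected -0.30) fell. Of the Usp deubiquitinases, 1 rose (GC content 40.0%) and 2 fell (GC content 57.5% to 59.1%) of 45 tested, with Usp9x higher (0.40 ± 0.13, corrected 0.048) and Usp35 (-0.72 ± 0.17, corrected -0.22) and Usp19 (-0.51 ± 0.17, corrected -0.080) lower. Medians of the last 2 lists were 0.044 (below 0 under quantile normalization and, at -0.040, after correction) and 0.15 (-0.0016 after correction).

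DnaJ proteins stimulate the ATPase of Hsp70 chaperones, and 6 rose (GC content 40.6% to 50.9%) and 0 fell of 40 tested (median 0.16, 0.024 after correction, at a median GC content of 47.4%), with 6 higher and 3 lower at a nominal p under 0.05 after correction. Dnajc25 (1.05 ± 0.25, corrected 0.86), Dnaja1 (0.47 ± 0.14, corrected 0.10) and Dnajb6 rose. Dnajb6, which suppresses aggregation, stood at 7.57, 7.53, 7.51, 7.70 and 7.79 in Late SAFit2 and 6.94 to 7.59 (median 7.10) in Late Vehicle, and gave 0.43 ± 0.13 at a GC content of 50.9% (0.48 after correction). In the set of steroid receptors and Hsp90 co-chaperones to which the drug target belongs, 2 rose (GC content 42.1% to 43.7%) and 3 fell (GC content 56.4% to 60.8%) of 22 tested, with a median of 0.022 that was on the other side of 0 under quantile normalization, without Bc1 and mitochondrially encoded genes in the library size, and after correction (-0.017). The chaperones Hsp90aa1 (0.57 ± 0.18, corrected 0.29) and Hsp90b1 (0.51 ± 0.16, corrected 0.16) rose, and the co-chaperones Sgta (-0.61 ± 0.18, corrected -0.16), Ppp5c (-0.42 ± 0.13, corrected -0.11) and Stub1 (-0.59 ± 0.19, corrected -0.080) fell. Of the FKBP family, 2 rose (GC content 38.3% to 42.0%) and 1 fell (GC content 63.0%) of 14 tested: the immunophilins Fkbp7 (1.01 ± 0.32, corrected 0.57) and Fkbp3 (0.50 ± 0.17, corrected 0.037) were higher and Fkbp8, which sits on mitochondria (-0.72 ± 0.19, corrected -0.10), lower. Fkbp5 itself stood at 4.75, 4.97, 4.95, 4.46 and 4.55 in Late SAFit2 and 4.28 to 4.60 (median 4.45) in Late Vehicle. Its log2 fold change of 0.29 ± 0.15 did not pass the test (limma adjusted p = 0.17, exact permutation p = 0.0346), and after correction it was 0.39 (limma adjusted p = 0.167, exact permutation p = 0.00866).

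Of 27 genes known to be induced by glucocorticoids, 1 rose, the gap junction gene Gjb6 (0.31 ± 0.10, corrected 0.27), and 0 fell (median -0.16, 0.055 after correction). Among immediate early genes, which respond within minutes to activity, 0 rose and 4 fell (GC content 55.5% to 68.2%) of 22 tested (median -0.35, -0.013 after correction, at a median GC content of 55.6%): Egr4 (-1.96 ± 0.53, corrected -1.09), Jund (-0.97 ± 0.28, corrected -0.16) and Ier2 (-0.85 ± 0.27, corrected -0.35) had the lowest p. Of the whole list, there were 2 higher and 3 lower at a nominal p under 0.05 after correction. Among circadian clock genes, 2 rose (GC content 41.6% to 45.1%) and 3 fell (GC content 55.6% to 56.8%) of 22 tested. Rorb (0.63 ± 0.17, corrected 0.34) and Hlf (0.36 ± 0.10, corrected 0.16) rose, and Csnk1e (-0.34 ± 0.10, corrected 0.0091), Cry2 (-0.38 ± 0.12, corrected -0.062) and Nr1d1 (-0.58 ± 0.19, corrected -0.22) fell. The median of the list was -0.12.

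Among nuclear factors, the share of zinc finger genes that rose was above the share of all genes on the deposited values, but not after correction. Of zinc finger genes named Zfp, 48 rose (GC content 35.4% to 48.6%) and 28 fell (GC content 44.3% to 68.7%) of 370 tested, which are shares of 13.0% and 7.57% against 6.14% and 7.62% of all genes. Beside Zfp991 and Zfp560, Zfp943 rose (1.01 ± 0.24, corrected 0.46). Zfp865 (-1.41 ± 0.28, corrected -0.98), Zfp783 (-1.31 ± 0.26, corrected -1.14) and Zfp668 fell. Zfp668 stood at 1.98, 1.62, 2.39, 1.93 and 0.93 in Late SAFit2 and 2.58 to 3.22 (median 2.99) in Late Vehicle, and its difference of -1.16 ± 0.24 was -1.05 after correction, with no overlap before or after. The median of the family was 0.15 and -0.037 after correction, at a median GC content of 44.1%. After correction 21 were higher and 39 lower at a nominal p under 0.05 (5.71% and 10.6%, against 5.95% and 9.74% of all genes). Of histone genes, many of them near-identical copies, 0 rose and 6 fell (GC content 48.4% to 71.3%) of 33 tested (median -0.37, -0.21 after correction, at a median GC content of 52.8%), shares of 0.0% and 18.2%, and there were 2 higher and 10 lower at a nominal p under 0.05 after correction (6.06% and 30.3%, against 5.95% and 9.74% of all genes). H2aj (-0.93 ± 0.21, corrected -0.73) and H1f10 (-1.08 ± 0.33, corrected -0.11) fell. H3c13 counts among the 6 (-1.99 ± 0.51, corrected -1.32), but it passed the filter through 5 Late Vehicle libraries and no Late SAFit2 library, so its difference is no support for the count. It had no read in 3 of the 5 Late SAFit2 libraries. Of splicing factors, 7 rose (GC content 33.9% to 44.9%) and 2 fell (GC content 51.2% to 59.4%) of 53 tested (median 0.25, -0.0026 after correction, at a median GC content of 45.5%). Lsm5 (1.36 ± 0.33, corrected 0.60), Srsf10 (0.57 ± 0.16, corrected 0.20) and Hnrnpa3 (0.46 ± 0.13, corrected 0.033) rose, and Snrpb (-0.51 ± 0.14, corrected -0.49) and Lsm4 (-0.63 ± 0.19, corrected -0.26) fell.

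In the potassium, calcium and sodium channel lists, 6.85%, 18.2% and 0% of genes were called in either direction, against 13.8% of all genes. Of potassium channel genes, 1 rose (GC content 44.4%) and 4 fell (GC content 44.3% to 61.3%) of 73 tested (median -0.18, -0.023 after correction, at a median GC content of 51.8%), shares of 1.37% and 5.48%, both below those of all genes (6.14% and 7.62%), and there were 10 higher and 7 lower at a nominal p under 0.05 after correction. Kcnh2 fell (-0.83 ± 0.25, corrected -0.22) and Kcnd2, an A-type channel, rose (0.41 ± 0.13, corrected 0.17). Kcnmb4, a beta subunit of the large calcium-activated channel, fell although its GC content was 44.3% (-0.80 ± 0.25, -1.09 after correction). Of genes with symbols of voltage-gated calcium channel subunits, all Cacng genes included, 0 rose and 4 fell (GC content 54.4% to 61.3%) of 22 tested (median -0.35, -0.040 after correction, at a median GC content of 53.6%). Those that fell were a share of 18.2% against 7.62% of all genes, with 1 higher and 3 lower at a nominal p under 0.05 after correction. Cacng4, which encodes an auxiliary subunit of AMPA receptors (-1.04 ± 0.22, corrected -0.79), Cacna1g (-0.67 ± 0.20, corrected -0.18) and Cacnb3 (-0.58 ± 0.16, corrected -0.0018) had the lowest p. None of 12 voltage-gated sodium channel genes was called by limma (0 at an adjusted p under 0.05, 0 higher and 2 lower at a nominal p under 0.05), with a median of 0.17. Among neurofilament and axon cytoskeleton genes, 2 rose (GC content 41.1% to 47.8%) and 1 fell (GC content 63.7%) of 25 tested. Map2, the dendritic microtubule protein, stood at 9.85, 10.15, 9.98, 10.20 and 10.14 in Late SAFit2 and 9.20 to 10.16 (median 9.37) in Late Vehicle and rose by 0.52 ± 0.14 (0.45 after correction), Kif5b rose (0.50 ± 0.16, corrected 0.13) and Sptbn4 fell (-0.90 ± 0.25, corrected -0.12).

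At the synapse, genes for glutamate receptors were called in both directions. Of AMPA, NMDA and kainate receptor genes, 3 rose (GC content 36.8% to 45.7%) and 3 fell (GC content 59.4% to 62.1%) of 18 tested. Their median was -0.25, and -0.15 after correction, at a median GC content of 48.9%. After correction 3 were above 0 and 15 below. Gria2 (0.56 ± 0.18, corrected 0.061), Gria3 (0.36 ± 0.12, corrected -0.067) and Grin2b (0.80 ± 0.25, corrected 0.70) rose, and the kainate subunit Grik5 (-0.94 ± 0.23, corrected -0.32), the obligatory NMDA subunit Grin1 (-0.87 ± 0.25, corrected -0.35) and Grin2c (-0.86 ± 0.26, corrected -0.21) fell. Gria2 stood at 8.03, 7.94, 7.79, 8.39 and 8.65 in Late SAFit2 and 7.24 to 8.20 (median 7.48) in Late Vehicle, and Grin1 at 7.53, 6.80, 7.11, 6.83 and 6.27 and 6.82 to 8.33 (median 8.03). After correction, Grin2b, Grik5 and Grin1 kept a nominal p under 0.05. Of metabotropic glutamate receptors, 0 rose and 1 fell (GC content 61.7%) of 7 tested, Grm4 (-0.91 ± 0.29, corrected -0.28). Of GABA-A and glycine receptor genes, 5 rose (GC content 35.3% to 47.1%) and 0 fell of 19 tested (median 0.24, -0.057 after correction, at a median GC content of 42.2%), with Gabrg1 (0.68 ± 0.19, corrected 0.086) and Glrb (0.45 ± 0.13, corrected 0.040) among them. Gabra5, whose receptors carry tonic inhibition, stood at 6.55, 6.58, 6.41, 6.72 and 6.58 in Late SAFit2 and 6.0 to 6.34 (median 6.21) in Late Vehicle, without overlap, and its difference of 0.38 ± 0.095 was 0.25 after correction (exact permutation p = 0.00866).

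Of postsynaptic density scaffolds, 2 rose (GC content 36.9% to 43.8%) and 7 fell (GC content 46.8% to 63.9%) of 24 tested (median -0.36, -0.014 after correction, at a median GC content of 53.6%). Shank3 (-0.94 ± 0.25, corrected -0.24) and Dlgap3 (-0.95 ± 0.27, corrected -0.21) fell, and Homer1 (0.63 ± 0.18, corrected 0.099) and Dlg1 (0.34 ± 0.10, corrected 0.085) rose. After correction the Shank3 groups, without overlap before, spanned 4.73 to 5.52 (median 5.10) in Late SAFit2 and 5.17 to 5.66 (median 5.36) in Late Vehicle. Dlg4, which encodes PSD-95, fell at a GC content of 46.8%, below the median. It stood at 8.30, 7.64, 7.76, 7.55 and 7.42 in Late SAFit2 and 7.82 to 8.58 (median 8.34) in Late Vehicle, and its difference of -0.52 ± 0.15 was -0.64 after correction (exact permutation p = 0.0303). Of synaptic vesicle and SNARE genes, 2 rose (GC content 38.8% to 45.4%) and 2 fell (GC content 54.9% to 61.9%) of 39 tested: Sypl (0.49 ± 0.15, corrected 0.019) and the active zone protein Pclo (0.31 ± 0.10, corrected 0.21) rose, and Slc32a1, the vesicular GABA transporter (-0.55 ± 0.18, corrected 0.057), and Napa (-0.32 ± 0.11, corrected -0.066) fell. The median of this list was -0.16, and -0.054 after correction, at a median GC content of 48.2%. After correction 13 were above 0 and 26 below.

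For genes of transmitter and pain signalling outside these receptors, 5.0%, 6.25%, 8.33% and 5.0% of the 4 lists that follow were called in either direction, against 13.8% of all genes. Of neuropeptides and their receptors, 1 rose (GC content 39.4%) and 1 fell (GC content 56.0%) of 40 tested: Nts, neurotensin, rose (0.68 ± 0.16, corrected 0.17) and Sst, somatostatin, fell (-0.71 ± 0.21, corrected -0.53). Of purinergic receptors, 1 rose (GC content 44.5%) and 0 fell of 16 tested, the riser being P2ry1 (0.50 ± 0.13, corrected 0.26). Of monoamine breakdown and receptor genes, 1 rose (GC content 40.4%) and 1 fell (GC content 65.5%) of 24 tested, Maoa (0.40 ± 0.11, corrected -0.013) and Adra2c (-0.63 ± 0.21, corrected 0.17). Of prostaglandin and endocannabinoid genes, 0 rose and 1 fell (GC content 52.4%) of 20 tested, and the faller was Faah, the hydrolase of anandamide (-0.47 ± 0.13, corrected -0.31). The medians of these lists were -0.089, -0.15, -0.052 and -0.19, with those of the purinergic and monoamine lists above 0 under quantile normalization. Eri1, an exonuclease of histone mRNA and small RNAs, rose (0.50 ± 0.14, corrected 0.21, GC content 43.2%).

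Of the NF-kappaB pathway, 2 rose (GC content 45.2% to 48.3%) and 3 fell (GC content 58.2% to 59.4%) of 25 tested (median -0.064, above 0 by voom and under quantile normalization). The activating kinase Map3k7 (0.40 ± 0.11, corrected 0.21) and its adaptor Tab2 (0.36 ± 0.11, corrected 0.31) rose, and the adaptor Tab1 (-0.67 ± 0.19, corrected -0.24), the transcription factor subunit Rela (-0.54 ± 0.18, corrected -0.048) and the inhibitor Nfkbib (-1.03 ± 0.23, corrected -0.59) fell. Of the Hedgehog pathway, all 27 genes were tested, and 0 rose and 5 fell (median -0.37, -0.057 after correction, at a median GC content of 55.7%), with 0 higher and 5 lower at a nominal p under 0.05 after correction. Beside Gli2 these included Kif7, a ciliary kinesin that regulates Gli proteins (-0.99 ± 0.26, corrected -0.46), and Iqce (-0.57 ± 0.16, corrected -0.31). Of Notch and Wnt receptors and ligands, 1 rose (GC content 40.3%) and 5 fell (GC content 54.7% to 61.9%) of 33 tested (median -0.24, -0.070 after correction, at a median GC content of 55.9%). Notch3 (-1.07 ± 0.25, corrected -0.51), Wnt2b (-1.19 ± 0.29, corrected -0.83) and Jag2 (-1.11 ± 0.29, corrected -0.46) fell, and Fzd3 rose (0.45 ± 0.15, corrected 0.10). Of the LDL receptor family, 1 rose (GC content 43.8%) and 4 fell (GC content 54.7% to 62.9%) of 16 tested: Lrp1 (-0.79 ± 0.23, corrected -0.29), Lrp5 (-0.83 ± 0.26, corrected -0.50) and Lrp3 (-0.67 ± 0.21, corrected 0.020) fell and Vldlr (0.41 ± 0.12, corrected 0.21) rose.

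Small GTPases and their regulators were also called in both directions. Of Rap GTPases and regulators, 2 rose (GC content 36.5% to 38.8%) and 3 fell (GC content 56.2% to 59.3%) of 20 tested: the GTPases Rap1a (0.75 ± 0.20, corrected 0.25) and Rap2c (0.55 ± 0.17, corrected -0.012) rose, and the regulators Rap1gap (-0.73 ± 0.21, corrected -0.22), Rapgef3 (-0.70 ± 0.21, corrected -0.33) and Rapgef1 (-0.52 ± 0.16, corrected -0.16) fell. Of Rab GTPases, 7 rose (GC content 39.5% to 46.7%) and 2 fell (GC content 54.8% to 57.9%) of 54 tested. Rab10 (0.41 ± 0.11, corrected 0.16), Rab6a (0.53 ± 0.14, corrected 0.28) and Rab18 (0.51 ± 0.14, corrected 0.10) rose, and Rab40c (-0.65 ± 0.15, corrected -0.39) and Rab4b (-0.54 ± 0.17, corrected -0.20) fell. The medians were -0.12 for the Rap list and 0.055 for the Rab list.

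The median of motile cilium genes was below 0 before and after correction, and below 0 in early mice too. Of motile cilium genes, 1 rose (GC content 45.0%) and 3 fell (GC content 48.0% to 61.4%) of 80 tested, with a median of -0.29 at a median GC content of 49.4% that changed to -0.24 after correction and stood at -0.47 in early mice. The shares that rose and fell, 1.25% and 3.75%, were below those of all genes (6.14% and 7.62%), and after correction 2 were higher and 9 lower at a nominal p under 0.05 (2.5% and 11.2%, against 5.95% and 9.74%). The summed level of the list lay the other way, with medians of 10.20 in Late SAFit2 and 10.06 in Late Vehicle on the log2 scale of summed CPM. That sum weighs the most abundant genes most, and the list was drawn by symbol, with all Spag and Cfap genes included. Drc7 (-1.80 ± 0.57, corrected -1.55) and Dnah11, an axonemal dynein (-2.23 ± 0.71, corrected -2.21), fell from Late Vehicle means of 1.44 and 0.14 log2 CPM, with no read of Dnah11 in 3 of the 5 Late SAFit2 libraries, and Foxj1, the master regulator of motile cilia, fell (-0.77 ± 0.19, corrected -0.20). Cfap36 rose (0.56 ± 0.17, corrected 0.29). Ependymal cells, which line the central canal, bear these cilia, and of 12 of their markers 0 rose and 3 fell, Foxj1, Pltp (-0.63 ± 0.19) and Rarres2 (-0.86 ± 0.28), with a median of -0.59, -0.55 after correction and -0.66 in early mice. The summed level of these markers was 7.98 to 9.07 in Late SAFit2 and 8.46 to 8.97 in Late Vehicle, and the part that their cell number plays in the cilium genes was not tested. Of primary cilium transport and transition zone genes, 2 rose (GC content 41.6%) and 1 fell (GC content 51.7%) of 43 tested (median -0.028, above 0 under quantile normalization). Ift74 (0.82 ± 0.20, corrected 0.43) and Rpgrip1l (0.41 ± 0.13, corrected 0.083) rose and Ift140 (-0.51 ± 0.17, corrected -0.37) fell.

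Interferon-stimulated genes had a median above 0 before and after correction. Of 23 tested, 3 rose and 0 fell (median 0.29, 0.20 after correction, at a median GC content of 49.0%), with 4 higher and 0 lower at a nominal p under 0.05 after correction. Parp14 stood at 2.38, 2.71, 2.40, 3.31 and 2.80 in Late SAFit2 and 1.54 to 2.25 (median 1.91) in Late Vehicle, without overlap, and rose by 0.80 ± 0.21 (0.71 after correction, exact permutation p = 0.00433). That exact p is the one every gene without overlap has. Ddx58, the RNA sensor RIG-I, also rose (0.50 ± 0.16, corrected 0.35). Isg15 and Irf7, other members of the list, gave -0.47 ± 0.37 and 0.12 ± 0.39 and were not called. Of MHC class I and II genes, 1 rose (GC content 41.2%) and 1 fell (GC content 54.5%) of 28 tested: B2m (0.61 ± 0.19, corrected 0.13) rose and H2-T23 (-0.53 ± 0.17, corrected -0.30) fell. Of collagens and laminins, 0 rose and 2 fell (GC content 59.2% to 62.9%) of 44 tested (median -0.35, 0.017 after correction, at a median GC content of 55.4%), the fallers being Col11a2 (-1.02 ± 0.30, corrected -0.32) and Col9a3 (-0.57 ± 0.18, corrected -0.078). Of cholesterol synthesis genes, 1 rose (GC content 41.9%) and 2 fell (GC content 56.3% to 59.0%) of 20 tested (median -0.022, above 0 when libraries are centred on the median gene): Idi1 (0.61 ± 0.16, corrected 0.24) rose, and Mvk (-0.58 ± 0.17, corrected -0.26) and Mvd (-0.62 ± 0.20, corrected -0.19) fell.

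Some called genes went against the trend or lay where it is weakest. In the lowest of 5 GC classes (up to 43.9%), 699 genes rose and 2 fell, the predicted genes Gm37254 (-1.55 ± 0.45, corrected -2.04, GC content 38.3%) and Gm19963 (-1.75 ± 0.53, corrected -2.08, GC content 43.8%). In the highest class (from 55.6%), 1 rose, Atp5k, and 878 fell. In the middle class (47.8% to 51.6%), 40 rose and 60 fell, and there a correction for GC content has least to remove. Mbnl2, the splicing regulator, stood at 7.65, 8.09, 7.95, 8.12 and 7.94 in Late SAFit2 and 7.06 to 7.79 (median 7.16) in Late Vehicle, with a difference of 0.62 ± 0.15 and 0.62 after correction. Ccpg1, a receptor for autophagy of the endoplasmic reticulum, stood at 7.28, 7.42, 7.37, 7.42 and 7.47 and 6.93 to 7.26 (median 7.06), without overlap (0.30 ± 0.082, corrected 0.29). A630072M18Rik (0.82 ± 0.21, corrected 0.75, GC content 47.9%), Olfml1 (0.44 ± 0.11, corrected 0.34, GC content 48.7%) and Ppp1r14c, an inhibitor of protein phosphatase 1 (0.47 ± 0.12, corrected 0.41, GC content 48.8%), also rose. Snx29, a sorting nexin, stood at 2.38, 2.34, 1.31, 1.85 and 1.02 in Late SAFit2 and 2.76 to 3.27 (median 2.88) in Late Vehicle and fell (-1.18 ± 0.26, corrected -1.12, GC content 51.0%). Bcl7c, a subunit of SWI/SNF chromatin remodelling complexes (-0.80 ± 0.18, corrected -0.69, GC content 51.3%), Ikbke, an IkappaB kinase-related kinase (-2.0 ± 0.46, corrected -1.95, GC content 50.3%), and Vps16, of the endosomal tethering complexes (-0.55 ± 0.13, corrected -0.45, GC content 51.5%), fell with Zfp668. No read of Ikbke was found in 2 Late SAFit2 libraries, nor of either predicted gene in Late SAFit2 replicate 5.

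After correction, the genes of lowest p on the higher side were Vash1, Ube2m, Med10, Ccpg1, Mbnl2 and Gabpa, none past an adjusted p of 0.05. Vash1, which detyrosinates tubulin (0.49 ± 0.092 corrected, -0.13 as deposited, GC content 62.2%), and Ube2m, the E2 enzyme for NEDD8 (0.42 ± 0.092 corrected, -0.19 as deposited, GC content 63.4%), were slightly lower as deposited and higher when set against genes of like GC content. For Ube2m, corrected values were 7.46, 7.36, 7.44, 7.37 and 7.29 in Late SAFit2 and 6.68 to 7.23 (median 6.94) in Late Vehicle, without overlap, where the deposited values overlapped, at 6.80 to 7.39 (median 6.92) and 6.83 to 7.40 (median 7.33). Med10, a Mediator subunit (0.65 ± 0.15 corrected, 0.43 as deposited, GC content 53.6%), did not overlap before or after. Gabpa, an ETS family factor for nuclear genes of mitochondria, was higher in both (0.36 ± 0.086 corrected, 0.73 as deposited, GC content 41.4%). On the lower side were, among others, Id3, Uqcrq, Zfp865, Zfp668 and Ndn. Ndn, the imprinted gene of necdin in neurons, was lower at a GC content of 44.5%: it stood at 7.98, 7.52, 7.57, 7.63 and 7.83 in Late SAFit2 and 7.99 to 8.17 (median 8.10) in Late Vehicle, and its difference of -0.39 ± 0.10 was -0.63 after correction. The lowest adjusted p of these 11 genes after correction was 0.0905.

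The late differences were not shown to be particular to late treatment gene by gene. In early mice limma called 0 genes, with 382 at a nominal p under 0.05. The test of the late minus the early effect called 0 genes by limma (lowest adjusted p 0.116), with 4095 at a nominal p under 0.05, 0 by voom and 2019 at a nominal p after correction. Without Late Vehicle replicate 6, 2614 genes passed. The late minus early log2 fold change was -1.36 for Gli2 (adjusted p = 0.116), 1.13 for Zfp991 (0.116) and -1.44 for Zfp668 (0.116). Early and late libraries carry different batch labels, so their levels were not compared.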

How the data were processed

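Lumbar cord RNA of 22 mice was sequenced by the authors as 75 bp paired-end reads from a directional kit (the strand setting of counting is not given in the sources used here), aligned to mm10, counted with featureCounts and scaled by trimmed mean of M-values. HISAT2, Trimmomatic and edgeR are named in the submitters' processing notes. The authors deposited the values as log2 CPM for 17306 genes, 370 of them without a symbol or a name by Entrez identifier. Multiplying back gave whole reads for 100.0% of values (within 0.02 reads), which gave depths, scaling factors and the voom alternative, and the deposited -3.15 is 0 reads.

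Fold changes are differences of these log2 values, which understate changes of low genes. limma 3.58.1 (R 4.3.3) with a variance trend fitted the 4 groups over 22 libraries, with Benjamini-Hochberg adjustment over 15808 genes and calls at an adjusted p under 0.05 and 1.2-fold. GC content and length are of the longest GENCODE M21 transcript (GRCm38), matched by Entrez identifier or, where that gave none, by symbol. The correction took a loess trend (span 0.5) on both off each library. Library measures were compared by two-sided exact permutation over 462 splits. Tests were run on simulated data first. Another scaling, filter, pseudocount, tool, replicate block and leaving out each library were tried.

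Named genes were the 8 of lowest p in each direction without overlap, the called genes of lowest p in each family (at most 3 in each direction), the 6 of lowest p in each direction after correction, at most 5 in each direction against the trend or in the middle of 5 classes of GC content, and genes the study names. Some of the genes that this rule selects are not reported here. The genes and lists were chosen with earlier results of these data known. Label titles of the Early SAFit2 libraries read SAFit1, and their treatment label reads SAFit2.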

Additional observations from a re-analysis of the deposited data

Results flagged for a closer look

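A sample stood apart from the rest of its group in 10 of 372 groups of values checked by Dixon's criterion, and chance alone sets apart about 1 in 20 groups. Late SAFit2 replicate 5 was lowest for Usp19 (5.29 log2 CPM), Mvk (3.74) and Gm37254 (-3.15, the value of 0 reads). Late SAFit2 replicate 1 was lowest for Ube2k (7.13), replicate 2 highest for Col9a3 (3.25), replicate 3 lowest for Csnk1e (5.41) and replicate 4 highest for Hlf (7.26). Late Vehicle replicate 6 was highest for the mitochondrially encoded ND6 (10.91), lowest for the proteasome subunit gene Psmb10 (4.46) and highest in the share of reads on Bc1 (7.55%).

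The late difference in GC slope between SAFit2 and Vehicle libraries minus the early one was -0.52 log2 units per 10 points of GC content (two-sided exact permutation within timing, p = 0.0262, not adjusted). Because that permutation assumes no difference in either timing, it cannot decide whether the late and early differences are unlike.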

How the results depend on the processing

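The count of 2174 called genes was within 1.5 times under other filters, pseudocounts, robust variance, centring and library sizes without Bc1 and mitochondrially encoded genes (1925 to 2475). It was 196 without a variance trend, 6495 with library quality weights, 1426 under quantile normalization, 1101 by voom, 1119 at 1.5-fold, and 0 with the 11 late libraries alone, with the GC slope as a covariate, or after correction for GC content with or without length, also with the 11 late libraries alone. Without 1 library it ranged from 1 to 5003, with 1351 and 1447 without Early SAFit2 replicate 4 or Early Vehicle replicate 6. Chosen after seeing the data, leaving out both Late SAFit2 replicates 3 and 5 left 1 call, and leaving out 1 late library after correction gave 0 to 313, with 105 without Late SAFit2 replicate 1, 30 without Late Vehicle replicate 2, 2 without Late SAFit2 replicate 4 and the highest without Late Vehicle replicate 6. The cause of these shifts was not tested. The replicate numbers did not pair the libraries (correlations of same-numbered deviations -0.27 to 0.36); with a replicate block 4271 genes were called, 110 after correction, and 1858 for the late minus the early effect, where 2 passed without a variance trend, and 0 to 2614 without 1 library.

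The GC slope difference kept its sign throughout (-0.57 to -0.40 without 1 library, exact permutation p 0.0159 to 0.0667), with -0.42 on coding sequence and -0.50 on the mean over transcripts. Without Late SAFit2 replicates 3 and 5 together it was -0.46 (exact permutation p = 0.0952). Of the 43 family medians, 1 changed sign on centring, 6 under quantile normalization, 2 without Bc1 and mitochondrially encoded genes, 1 by voom, 14 after correction and at most 5 without a late library.

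Among the 181 genes checked singly, log2 fold changes with the other sign were, under quantile normalization, COX1 -0.16 and ATP6 -0.013. After correction for GC content and length, with all libraries or the 11 late ones, they were Psmc6 -0.063, Gria3 -0.067, Slc32a1 0.057, Lrp3 0.020, Rap2c -0.012, Maoa -0.013, Adra2c 0.17, Csnk1e 0.0091, Vash1 0.49, Ube2m 0.42 and ND6 -0.010, and after correction for GC content alone Psmc6 -0.039, Usp9x -0.030, Gria3 -0.079, Slc32a1 0.041, Rap2c -0.0075, Maoa -0.016, Adra2c 0.13, Fkbp3 -0.00045, Vash1 0.48 and Ube2m 0.47. After correction with the replicate block they were Psmc6 -0.10, Cacnb3 0.072, Gria3 -0.12, Sypl -0.041, Slc32a1 0.024, Lrp3 0.044, Rap2c -0.028, Maoa -0.011, Adra2c 0.21, Csnk1e 0.063, Vash1 0.57, Ube2m 0.47 and ND6 -0.044. With the GC slope as a covariate they were Atp5d 0.018, Rpl13 0.096, Ube2o 0.012, Usp19 0.038, H1f10 0.060, Kcnd2 -0.0085, Kcnh2 0.00055, Grin1 0.033, Slc32a1 0.062, Sptbn4 0.018, Rela 0.0018, Lrp1 0.020, Rap2c -0.0073, Rap1gap 0.0018, Rab4b 0.048, Sgta 0.0076, Stub1 0.10, Jund 0.068, Nr1d1 0.086, Col11a2 0.0013, Mvd 0.0081, Vash1 0.29 and Ube2m 0.18. None of the 181 changed sign under the other alternatives run on single genes.

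Genes near the value of 0 reads rest on few reads, and their fold changes depend on that floor.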
